A study of Mus musculus with 58 samples.

Results

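The epithelial progenitor cells of the E12.5 mouse pancreas were taken from the live-cell plates of 2 experiments, coded EP11 and EP18. A well was kept when it held at least 2000 transcripts outside the ERCC spike-ins and at least 500 genes. A kept well counted as a progenitor cell when Epcam was detected, at least 2 of Ptf1a, Cpa1, Sox9, Nr5a2, Spp1 and Bicc1 were detected, neither Neurog3 nor Fev was detected, and Gcg made up less than 1% of transcripts. This rule chose 228 of the 570 kept wells, of 4318 kept wells in the whole series: 131 of 351 in EP11 (37.3%, 95% Wilson interval 32.4 to 42.5) and 97 of 219 in EP18 (44.3%, 37.9 to 50.9). These intervals cover counting error only. The other 342 kept wells of the same plates (220 in EP11 and 122 in EP18) served as the comparison.

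The series profiled single cells of embryonic pancreas by SORT-seq, in which cells are sorted into the wells of 384-well plates and transcripts are counted with unique molecular identifiers. The embryos of every group came from pregnant mice that carry mip-gfp, a GFP reporter driven by the mouse insulin promoter, and live cells were gated as negative for a viability dye and not for GFP. Plates sorted for MIP-GFP are used only for a count of wells that met the rule. The groups are E12.5 live cells (EP11 and EP18), followed by live cells of EP12 (E13.5), EP14 (E14.5), EP10 and EP17 (both E15.5) and EP16 (E18.5). Strain, sex and the number of embryos per plate are not given in the sources used here, so an experiment is the replicate and the spread between experiments may include technical differences. No treatment or mutation was applied.

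At this age the pancreatic buds of the mouse are a branching epithelium inside mesenchyme. Cells at the tips of the branches express the transcription factor Ptf1a and the carboxypeptidase gene Cpa1 and go on to form acinar cells, which make digestive enzymes. Cells of the central trunk express Sox9, Nkx6-1 and the secreted phosphoprotein gene Spp1 and go on to form ducts and, after switching on Neurog3, endocrine cells. Before the domains separate, multipotent progenitors carry genes of both programmes in the same cell. The first analysis below describes how the chosen cells differ from their neighbours, the second asks whether tip and trunk genes were found in the same cells, and the third compares the chosen cells with those the same rule chose at later stages.

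More transcripts were counted in the progenitor cells than in their neighbours. Their median depth was 25874 transcripts in EP11, with a range of 5416 to 76263, against 17664 in the other kept wells, and 9428 in EP18, with a range of 2247 to 64152, against 6649. They had a median of 6100 genes in EP11, against 5202 in other wells, and 3233 genes in EP18, against 2742. All 384 well numbers occur on both plates, but 0 wells held identical values, and profiles with the same well number were correlated as closely (median r 0.431) as those with different numbers (0.429). In 3 of the progenitor wells of EP18 and 0 of EP11 the depth exceeded 5 times the plate median. The 2 plates also differ in how their libraries are coded in the labels: EP18, like EP17 at E15.5, has lettered libraries and lower depth, and all other experiments have numbered ones.

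Epcam is present in all chosen cells by the rule. Of the 6 tip and trunk genes of the rule, Sox9, a transcription factor needed to maintain the progenitor pool, was detected in the largest share of cells on each plate. It was present in 99.2% of the progenitor cells of EP11 and 92.8% of those of EP18. Cpa1 was detected in 93.1% and 84.5%, Spp1 in 86.3% and 90.7%, and Nr5a2, a nuclear receptor of the exocrine pancreas, in 84.0% and 27.8%. Ptf1a was detected in 55.7% and 47.4%, and Bicc1, an RNA-binding protein gene, in 46.6% and 14.4%. Per cell, Ptf1a ranged from 0 through a median of 1.00 to 19.7 transcripts in EP11 and from 0 through 0 to 12.3 in EP18, and Sox9 from 0 through 20.8 to 75.0 in EP11 and from 0 through 7.10 to 55.6 in EP18. In wells of the same plates without Epcam (166 in EP11 with a median of 16679 transcripts, 98 in EP18 with 6499), Ptf1a was found in 4.22% and 10.2%, Sox9 in 57.2% and 42.9%, Cpa1 in 50% and 39.8%, and Spp1 in 14.46% and 28.6%. Gcg, a hormone gene of alpha cells, was found in 77.9% and 56.7% of progenitor cells and in 71.7% and 53.1% of wells without Epcam. Detection of Gcg was thus close to that in wells without Epcam, and Cpa1 and Sox9 were found in many of those wells too. Summed Gcg was 77.8 CPM in progenitor cells of EP11, against 96.8 CPM in wells without Epcam, and 391 CPM in EP18, against 386 CPM. Set against all other kept wells and summed over cells, Sox9 reached 871 CPM (a gene's count scaled to the summed transcripts of its group) in progenitor cells of EP11, against 162 CPM in other wells, and 861 CPM in EP18, against 214 CPM. Ptf1a reached 89.5 CPM in progenitor cells of EP11, against 12.7 CPM in other wells, and 141 CPM in EP18, against 24.4 CPM. Bicc1 was as high in the other wells, at 33.1 CPM in progenitor cells of EP11, against 28.9 CPM in other wells, and 17.97 CPM in EP18, against 18.8 CPM.

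Within the group, cells with more rule genes were deeper. In EP11, 3, 12, 38, 53 and 25 cells had 2, 3, 4, 5 and 6 of the 6 genes, and their median depths ran from 14613 to 32297 transcripts. In EP18, 14, 36, 28, 15 and 4 cells did, with median depths from 6175 to 38451. The cells just inside the limit, with 2 rule genes, had a median Col3a1 value of 7.10 transcripts per cell in EP11 and 0 in EP18, and a median Cdh1 value of 1.00 and 2.01. The Epcam-positive wells just outside it, with 1 rule gene (8 wells in EP11 and 2 in EP18), had medians of 28.0 and 15.47 transcripts of Col3a1, a fibrillar collagen of mesenchyme, and of 0 and 0 for the adhesion gene Cdh1.

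The label was checked against genes that the rule did not use. The epithelial genes Cdh1 and Krt8 were detected in 96.9% and 95.4% of the progenitor cells of EP11 and in 93.8% and 80.4% of those of EP18. Among pancreatic progenitor factors, Foxa2 was detected in 88.5% and 52.6% of cells in EP11 and EP18, Gata4 in 73.3% and 38.1%, Nkx6-1 in 84.7% and 15.46%, Onecut1 in 77.1% and 6.19%, and Pdx1 in 41.2% and 5.15%. At an equal 4000 transcripts per cell, Foxa2 was found in 42.7% of cells in EP11 and 36.0% in EP18, and Nkx6-1 in 45.0% and 8.14%, and summed Onecut1 was 86.7 CPM in EP11 and 5.99 CPM in EP18. The gap between the plates in Nkx6-1 and Onecut1 was thus also present with depth accounted for, and experiment and library coding cannot be told apart in it. Markers of other cell types were low but not absent. The 12 mesenchyme markers together made up a median of 0.0757% of the transcripts of a progenitor cell in EP11 (highest 0.751%), against 0.556% in other wells, and 0.0966% in EP18 (highest 0.422%), against 0.584%, with Nkx3-2 at 0 in both plates. Of 7 endothelial markers, Pecam1, Cdh5, Kdr and Emcn were at 0 in the progenitor cells of EP11 and all 7 were at 0 in those of EP18. The 7 immune markers had a median of 0 on both plates, and 1.30% was the highest value in a progenitor cell of EP18. Among 9 liver markers Apoa1 was at 0 in the progenitor cells of both plates, and among 10 markers of bile duct, gut and stomach Cdx1, Cdx2, Sox2, Gkn1 and Cldn18 were. Both lists together were nonetheless higher in progenitor cells. The liver markers made up a median of 0.0465% in EP11 and 0.0305% in EP18, against 0 in other wells of each plate. The bile duct, gut and stomach markers made up 0.0102% and 0.0103%, against 0. Afp, Serpina1b and Hhex were at least 2-fold higher on both plates, as were 3.51% of all compared genes. The part of such RNA in the results below was not tested.

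Against the other kept wells, the genes highest in progenitor cells included Cckar, Gc, Nrarp and Vtn, and the lowest included endocrine, globin and mesenchymal genes. Since the rule chose the cells on these same plates, the values describe the cells and no test was made. A gene counted as different when it was at least 4-fold apart in the same direction in both experiments, with 1 CPM added to each value and at least 50 CPM in the higher group. Of 3964 genes outside the rule that reached this level, 16 (0.404%) were higher and 165 (4.16%) were lower in progenitor cells. The count of higher genes was 27 without EP11, 54 without EP18 and 29 with the mean of per-cell shares in place of summed counts. Ranked by the smaller of its folds in the 2 experiments, the first gene was Cckar, the receptor of the hormone cholecystokinin on acinar cells, with 133 CPM in progenitor cells of EP11, against 22.1 CPM in other wells, and 172 CPM in EP18, against 21.6 CPM. Gc, the vitamin D binding protein, had 680 CPM in progenitor cells of EP11, against 112 CPM, and 948 CPM in EP18, against 174 CPM. The values of the progenitor cells lay above those of the other wells on both plates for both genes.

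Other genes of this kind have varied roles. Nrarp, a target and feedback inhibitor of Notch signalling, had 70.1 CPM in progenitor cells of EP11, against 12.1 CPM, and 83.9 CPM in EP18, against 16.9 CPM. Vtn, the adhesion protein vitronectin, had 278 CPM in progenitor cells of EP11, against 42.3 CPM, and 123 CPM in EP18, against 25.3 CPM. Cldn10, a tight junction gene, had 91.2 CPM in progenitor cells of EP11, against 14.1 CPM, and 187 CPM in EP18, against 41.3 CPM. Kynu, an enzyme of tryptophan breakdown, had 57.8 CPM in progenitor cells of EP11, against 10.5 CPM, and 74.5 CPM in EP18, against 10.3 CPM. The metallothionein gene Mt1 and the transcripts BC006965 and 5930403L14Rik were also among the 10 highest, with folds of 4.44 to 9.68. The chymotrypsinogen gene Ctrb1, the sulfotransferase gene Chst2, the lipase gene Mgll, the myosin gene Myo5c, the ATP receptor gene P2rx1 and Gm16551 also passed, with folds between 4.01 and 5.20.

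Among the 10 genes ranked lowest, Pax6, an endocrine transcription factor, had 1.39 CPM in progenitor cells of EP11, against 55.3 CPM, and 0.856 CPM in EP18, against 86.3 CPM. Neurod1, which acts after Neurog3, had 1.39 CPM in progenitor cells of EP11, against 63.9 CPM, and 1.71 CPM in EP18, against 65.6 CPM. The rule itself placed wells with Neurog3, Fev or at least 1% Gcg among the other wells. In wells without Epcam, Pax6 had 0.643 CPM in EP11 and 4.99 CPM in EP18, and Neurod1 had 1.29 and 4.99 CPM. Chgb, a granin of secretory granules, and Pyy, a peptide hormone, were among the 10 lowest too, and so were the globin gene Hba-a1 and Beta-s, the collagen gene Col14a1, the noncoding Dnm3os and the mesenchymal homeobox gene Hoxa5, which had 9.45 CPM in progenitor cells of EP11, against 214 CPM, and 9.41 CPM in EP18, against 242 CPM. Hba-a1 has a near-identical copy, and how reads were divided between the copies is not given in the sources used here.

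**Figure D1:**
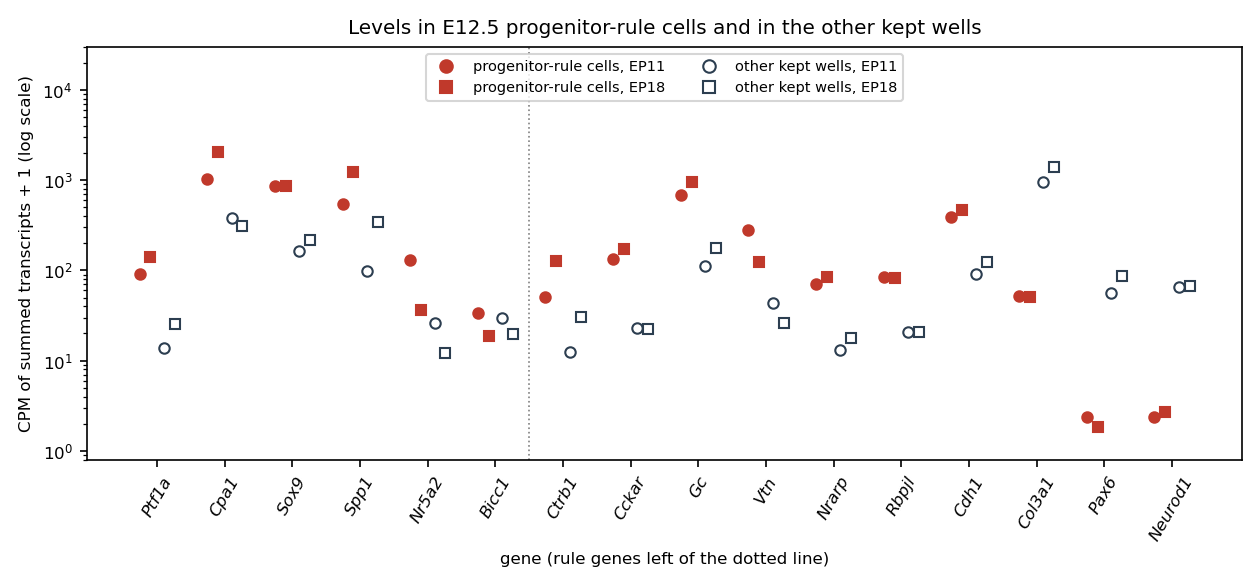
Summed transcripts in CPM plus 1, on a log axis, for the 6 rule genes and 10 further genes in E12.5 progenitor cells (filled red) and in the other kept wells (open), with circles for EP11 and squares for EP18; there are no error bars because each point is the sum of all cells of a plate. Ctrb1, Cckar, Gc, Vtn and Nrarp lie higher in progenitor cells on both plates, Col3a1, Pax6 and Neurod1 lie lower, and Bicc1 lies at 33.1 and 17.97 CPM, against 28.9 and 18.8 CPM in other wells.

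Genes of the lists are given by their values, since a gene had to reach 50 CPM in the higher group to be compared, and a count or median over those that did is set in part by this. Over all compared genes, 3.51% were at least 2-fold higher and 7.27% at least 2-fold lower in both experiments. Of epithelial genes, the tight junction gene Cldn6 had 688 CPM in progenitor cells of EP11, against 160 CPM, and 417 CPM in EP18, against 131 CPM, and the keratin gene Krt18 had 242 CPM in EP11, against 69.4 CPM, and 228 CPM in EP18, against 74.1 CPM. Of acinar enzymes, the lipase-related gene Pnliprp1 had 109.5 CPM in progenitor cells of EP11, against 23.9 CPM, and 269 CPM in EP18, against 72.2 CPM. Most of the 27 listed enzymes did not reach 50 CPM. Rbpjl, a partner of Ptf1a, had 83.1 CPM in progenitor cells of EP11, against 19.6 CPM, and 80.4 CPM in EP18, against 19.7 CPM. Of the trunk factors only the Notch target Hes1 reached 50 CPM in both experiments, with 341 CPM in progenitor cells of EP11, against 274 CPM, and 192.5 CPM in EP18, against 158.5 CPM. The mesenchyme gene Col1a1 had 38.4 CPM in progenitor cells of EP11, against 785 CPM, and 39.4 CPM in EP18, against 941 CPM.

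Receptors and targets of the signals known in the bud gave mixed values. Of 7 tested Notch pathway genes, Nrarp was the 1 past 2-fold, and the receptor gene Notch1 had 83.7 CPM in progenitor cells of EP11, against 46.9 CPM, and 77.0 CPM in EP18, against 34.7 CPM. Of 5 tested Fgf pathway genes, 0 were 2-fold higher, and the receptor gene Fgfr1 and the inhibitor gene Spred1 were 2-fold lower. Fgfr2, the receptor for mesenchymal Fgf10, had 138 CPM in progenitor cells of EP11, against 113 CPM, and 183 CPM in EP18, against 124 CPM. Among 7 tested Wnt pathway genes, the secreted genes Wnt5a and Sfrp1 were at least 4-fold lower. Among 8 tested Hippo pathway genes, the coactivator gene Wwtr1 was 2-fold lower. Of 42 tested cell cycle genes, Ccnd1 was 2-fold higher and the inhibitor gene Cdkn1c 2-fold lower.

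The other wells mix several kinds of cell. They comprised 166 wells in EP11 and 98 in EP18 without Epcam, 38 and 10 with Neurog3 or Fev, 6 and 11 with at least 1% Gcg, and 10 and 3 with Epcam but fewer than 2 rule genes. Of the wells without Epcam, 29 in EP11 and 16 in EP18 had Cdh1 and at least 2 rule genes. The Neurog3 or Fev wells had 528 CPM of Sox9 in EP11, against 71.4 CPM in wells without Epcam, and 675 CPM in EP18, against 133 CPM. In EP11 these Neurog3 or Fev wells had 176 CPM of Vtn and 588 CPM of Cldn6, against 278 and 688 CPM in progenitor cells. In EP18 they had 122 and 540 CPM, against 123 and 417 CPM. The contrast with all other wells thus does not set progenitor cells apart from these wells for every gene. Set against wells without Epcam alone, a comparison added after seeing the data, 100 genes were at least 4-fold higher and 190 lower of 4008. Ranked by the smaller of the 2 folds, Kynu then came first, with 29.9 in EP11 and 33.6 in EP18, followed by the epithelial splicing regulator gene Esrp1 with 15.1 and 15.8. The receptor gene Met was also among the top 10, with 16.3 and 12.03.

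Proliferation was compared at equal depth, after drawing 4000 transcripts at random from each cell and leaving out shallower ones. At least 3 transcripts of 14 genes of the G2 and M phases were found in 64.9% of 131 progenitor cells in EP11, against 50% of 162 wells without Epcam, and in 67.4% of 86 progenitor cells in EP18, against 54.4% of 68. For 12 genes of DNA replication the shares were 93.1% in progenitor cells of EP11, against 71.0%, and 94.2% in EP18, against 88.2%. The progenitor cells thus held transcripts of the cell cycle more often on both plates. No test was made.

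Tip and trunk genes were detected in the same cells. At full depth, Ptf1a and Sox9 were found together in 73 of 131 progenitor cells of EP11 (55.7%, 47.2 to 64.0) and in 42 of 97 of EP18 (43.3%, 33.9 to 53.2). Every Ptf1a-positive cell of EP11 and 42 of 46 of EP18 also held Sox9, while 57 and 48 cells had Sox9 alone. The rule asks for at least 2 of 6 genes, so these shares are partly set by it. In all Epcam-positive wells without Neurog3, Fev or high Gcg, whatever their rule genes, the share was 51.8% of 141 in EP11 and 42.0% of 100 in EP18.

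Whether the sharing exceeded what separate detection would give was examined in cells drawn down to 4000 transcripts, as the mean of 20 random draws (131 cells in EP11, 86 in EP18). Ptf1a and Sox9 occurred together in 20.7% of cells in EP11 and 26.5% in EP18, which was 1.00 and 0.96 times the share expected if the genes were detected independently. Expected here is the product of the 2 shares. For at least 1 tip factor outside the rule (Gata4, Rbpjl, Myc, Bhlha15 or Mycn) with at least 1 trunk factor outside the rule (a list of 5 that includes Onecut1, Glis3, Nkx6-1 and Hes1), the cells with both made up 57.2% in EP11 and 39.2% in EP18, or 1.00 and 1.03 times the expected share. The observed share of cells with factors of both domains was thus close to the product of the separate shares, and 1 lay within the range of the draws (0.97 to 1.05 in EP11, 0.94 to 1.14 in EP18). Each range covers repeated draws from the same cells only, and not the spread between cells, embryos or experiments. In EP11 the separate shares were 69.6% and 82.0%, so many cells had to hold both however the factors were related. The ratio could thus fall little below 1 there and says little on whether the factors were kept apart. In EP18 the separate shares were 65.4% and 58.1%, which left more room. In wells without Epcam, 17.3% in EP11 and 13.2% in EP18 had both kinds of factor in the first draw.

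Cpa1 and Spp1 occurred together in 36.1% of cells in EP11 and 54.4% in EP18, 0.89 and 0.92 times the expected share, with draws from 0.79 to 1.01 in EP11 and from 0.90 to 0.98 in EP18. Both are rule genes, and asking for 2 of 6 leaves out some cells with neither. Leaving out such cells lowers this ratio by arithmetic, and how far it did so here was not tested. In all Epcam-positive wells without Neurog3, Fev or high Gcg the first draw gave 1.01 in EP11 and 0.98 in EP18, against 0.95 and 0.94 in the progenitor cells of that draw. The wells that this wider set adds held fewer than 2 rule genes. Those with 1 rule gene had medians of 28.0 transcripts of Col3a1 in EP11 and 15.47 in EP18, and 0 of Cdh1. They may thus not be progenitor cells. The rank correlation of Cpa1 with Spp1 over cells was -0.33 in EP11 and -0.51 in EP18, and that of Ctrb1, which is not a rule gene, with Spp1 was -0.24 and -0.44. In the Epcam-positive wells chosen without the 6 genes, the first draw gave -0.17 and -0.35 for Cpa1 with Spp1, against -0.29 and -0.44 in the progenitor cells of that draw, and -0.26 and -0.31 for Ctrb1 with Spp1, against -0.29 and -0.34. Before thinning, Cpa1 ranged from 0 through a median of 7.10 to 219 transcripts per cell in EP11 and from 0 through 5.05 to 389 in EP18. Spp1 ranged from 0 through 8.13 to 88.8 in EP11 and from 0 through 8.13 to 119 in EP18. In the first thinned draw, 34 cells of EP11 and 29 of EP18 had at least 5 Cpa1 transcripts and 24 and 41 had at least 5 Spp1 transcripts. Both were that high in 1 cell of EP11 and 9 of EP18. Cells with high Cpa1 and no Spp1 numbered 17 and 9, and cells with high Spp1 and no Cpa1 numbered 12 and 17. Most cells lay between these ends. These correlations are over cells of 1 plate at equal depth and carry no p-value.

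**Figure D2:**
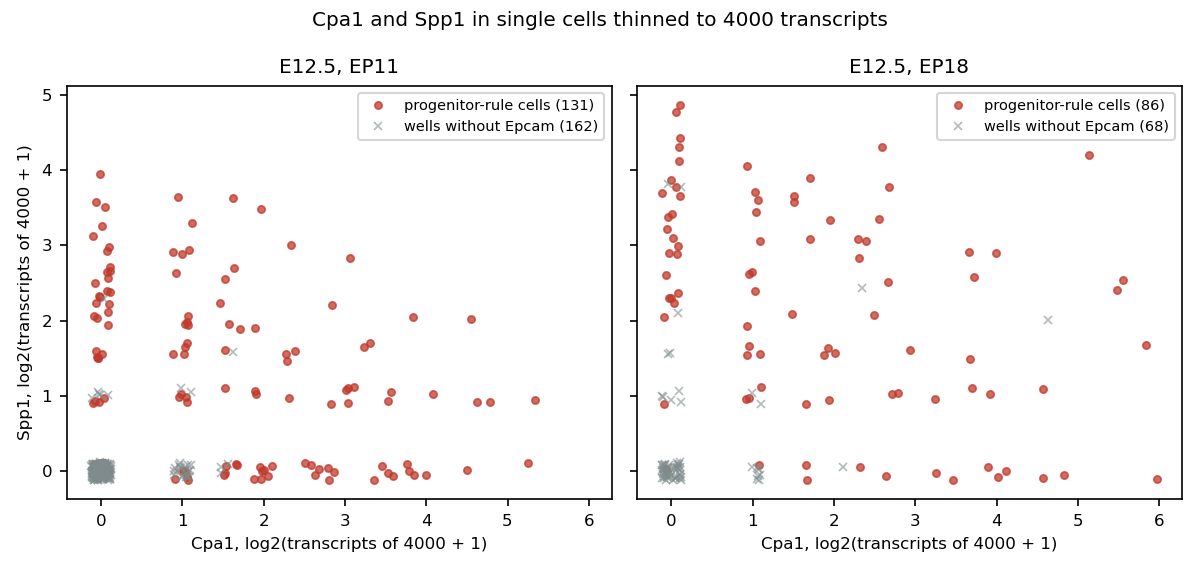
Transcripts of Cpa1 and Spp1 per cell, as log2 of the value plus 1 after drawing 4000 transcripts per cell, with a small random shift to separate points, in progenitor cells (red) and wells without Epcam (grey crosses) of EP11 and EP18. At least 5 transcripts of each gene were found in 1 of 131 progenitor cells of EP11 and 9 of 86 of EP18, and low counts of both fill the space between the axes.

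Over 2693 genes detected in at least 20% of cells of both plates, and ranked by the lower of the 2 correlations in the mean of 20 draws, the genes most like Cpa1 included the colipase gene Clps (0.42 in EP11, 0.48 in EP18), Serpina6 (0.35, 0.39), the Notch-related gene Dlk1 (0.35, 0.39) and Vtn (0.48, 0.34). Spp1 was most like Spon1 (0.39, 0.36), the protease gene Adamts1 (0.37, 0.34), the matrix gene Sparc (0.39, 0.33), the sodium pump gene Atp1b1 (0.33, 0.35) and Sox9 (0.31, 0.35). Sparc had 628.5 and 447 CPM in progenitor cells of EP11 and EP18, against 1778 and 1352 CPM in wells without Epcam. Spon1 had 118 and 108 CPM, against 31.5 and 21.2 CPM. The part of RNA from other cells in these correlations was not tested. Sox9 was most like Adamts1 (0.34, 0.39), Spp1 (0.31, 0.35), Atp1b1 (0.31, 0.28), Ugt2b34 (0.26, 0.29) and Grb10 (0.24, 0.27). Ptf1a gave weak values, the highest for the lipase-related gene Pnliprp1 (0.25, 0.35), Chst2 (0.24, 0.29), Dlk1 (0.29, 0.23), the imprinted gene Mest (0.23, 0.34) and Cpa1 (0.23, 0.29). The first draw alone named Mtx2, Chst2, Serpina6, Srp19 and Ttr for Ptf1a, and these held places 171, 2, 6, 100 and 11 in the mean of draws. Ptf1a ran against Spp1 (-0.25, -0.39), but its correlation with Sox9 was -0.05 in EP11, with draws from -0.26 to 0.13, and -0.13 in EP18, with draws from -0.26 to 0.03. The trunk factor genes gave weak values too, with 0.14 and -0.02 for Hes1 with Spp1 and 0.18 and 0.11 for Nkx6-1 with Sox9. The red cell transcript Hbb-y, taken as a comparison from another cell type, had -0.08 and 0.00 with Cpa1 and 0.07 and -0.05 with Spp1.

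**Figure D3:**
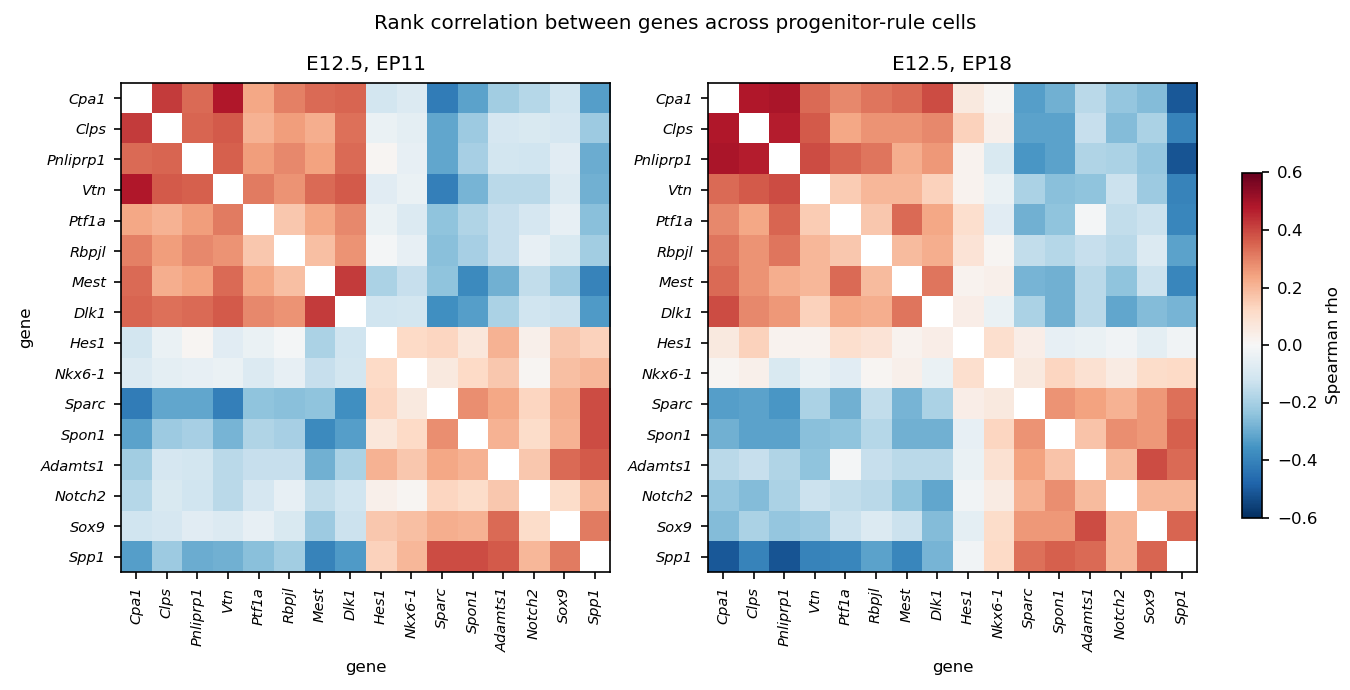
Spearman correlation between 16 genes over progenitor cells of EP11 (131 cells) and EP18 (86 cells), as the mean of 20 draws of 4000 transcripts per cell, on a colour scale from -0.6 to 0.6. A block of Cpa1, Clps, Pnliprp1 and Vtn stands against Spp1, Sparc and Spon1 on both plates, and the weaker link of Ptf1a with Sox9 is -0.05 in EP11 and -0.13 in EP18.

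The complex of Ptf1a, an E protein and Rbpj or Rbpjl is known to bind an E-box together with a TC-box, so the 250 bases before the start of 3 genes are shown: Cpa1 for the tip genes, Ctrb1 for the enzymes with higher values at E15.5, and Spp1 for the trunk genes. They are from RefSeq on GRCm38.p6, the assembly also called mm10, and read 5′ to 3′ on the gene's strand. Capitals mark matches to the TC-box letters TTTCCCA or their other strand TGGGAAA, and to the E-box letters CAGCTG, which read alike on both strands. The motifs do not overlap each other.
Cpa1, chr6:30638968-30639217, plus strand: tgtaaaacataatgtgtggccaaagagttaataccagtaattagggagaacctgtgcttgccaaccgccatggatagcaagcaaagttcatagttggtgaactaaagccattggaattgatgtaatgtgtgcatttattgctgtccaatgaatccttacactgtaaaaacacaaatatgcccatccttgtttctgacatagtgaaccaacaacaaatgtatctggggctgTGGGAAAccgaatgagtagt
Ctrb1, chr8:111691011-111691260, minus strand: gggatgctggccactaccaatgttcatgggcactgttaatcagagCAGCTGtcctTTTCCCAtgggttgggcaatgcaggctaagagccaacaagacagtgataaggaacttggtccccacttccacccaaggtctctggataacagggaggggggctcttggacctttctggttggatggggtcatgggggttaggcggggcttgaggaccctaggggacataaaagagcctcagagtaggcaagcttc
Spp1, chr5:104434861-104435110, plus strand, the first of 2 promoters listed: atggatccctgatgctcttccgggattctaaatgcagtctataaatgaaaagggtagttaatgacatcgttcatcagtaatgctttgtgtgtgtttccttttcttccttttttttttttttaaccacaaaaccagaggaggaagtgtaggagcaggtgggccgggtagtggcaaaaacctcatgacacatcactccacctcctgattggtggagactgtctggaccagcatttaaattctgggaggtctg

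Cpa1 has TGGGAAA beginning 20 bases before its start, and Ctrb1 has CAGCTG at 205 and TTTCCCA at 195 bases before its start. Spp1 has neither of these sets of letters in this window, and other forms of the E-box were not searched. Among all 32851 promoter windows of this length, 6.82% hold the TC-box letters and 13% the E-box letters. Of the 27 acinar enzymes 21 had a sequence, of which Cel, Cela2a, Ctrb1, Prss2 and Reg1 hold the TC-box letters and 6 the E-box letters. Of Cpa1 and the 5 genes most like it, 3 had a sequence, of which Cpa1 alone holds the TC-box letters and 0 the E-box letters. Of Spp1 and the 5 most like it, 4 had a sequence, of which 0 hold the TC-box letters and Sparc the E-box letters. A match describes the letters and is not evidence of binding.

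The same measures were taken in cells of the rule at later stages. Cpa1 and Spp1 had correlations of -0.33 and -0.51 at E12.5, -0.51 in EP12 (E13.5), -0.47 in EP14 (E14.5), and -0.31 and -0.54 in EP10 and EP17 (E15.5), so the E12.5 values lay within the range up to E15.5. In EP16 (E18.5) the value was 0.17. Cpa1 and Clps had 0.42 and 0.48 at E12.5, below 0.69 in EP12, 0.77 in EP14 and 0.82 and 0.61 in EP10 and EP17, but above 0.38 in EP16. In the first draw Clps was found in 40.5% and 44.2% of cells at E12.5. Later it was found in 55.7% in EP12, 53.6% in EP14, 65.8% in EP10, 91.2% in EP17 and 38.9% in EP16. The part of sparse counts in these correlations was not tested. Sox9 and Spp1 had 0.31 and 0.35 at E12.5, below 0.51 in EP12, 0.61 in EP14, 0.66 in EP10, 0.52 in EP17 and 0.45 in EP16. Ptf1a and Sox9 occurred together at 1.00 and 0.96 times the expected share at E12.5, 0.79 in EP12, 0.97 in EP14, and 0.98 and 0.80 in EP10 and EP17, and the groups overlap. These values carry no test. For tip and trunk factors the ratio averaged 1.02 ± 0.02 at E12.5 (SD, n = 2) and 1.01 ± 0.03 at later stages (n = 5) in the mean of 20 draws, an alternative added after seeing the data, a difference of 0.0108 (exact two-sided permutation test over experiments, p = 0.714). The first draw, which was the planned measure, gave 1.06 ± 0.06 at E12.5 and 1.00 ± 0.01 at later stages, a difference of 0.0636, with the smallest p this design can give (exact two-sided permutation test, p = 0.0476, adjusted over 2 values 0.0952). Of the 20 other draws, 0 reached that p, and their differences ran from -0.0508 to 0.0672. The adjusted p could fall under 0.05 only if the share of wells given below reached 0.0476 in the same test too. As in EP11, the separate shares of tip and trunk factors in EP17 (84.2% and 70.1%) left the ratio little room below 1.

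**Figure D4:**
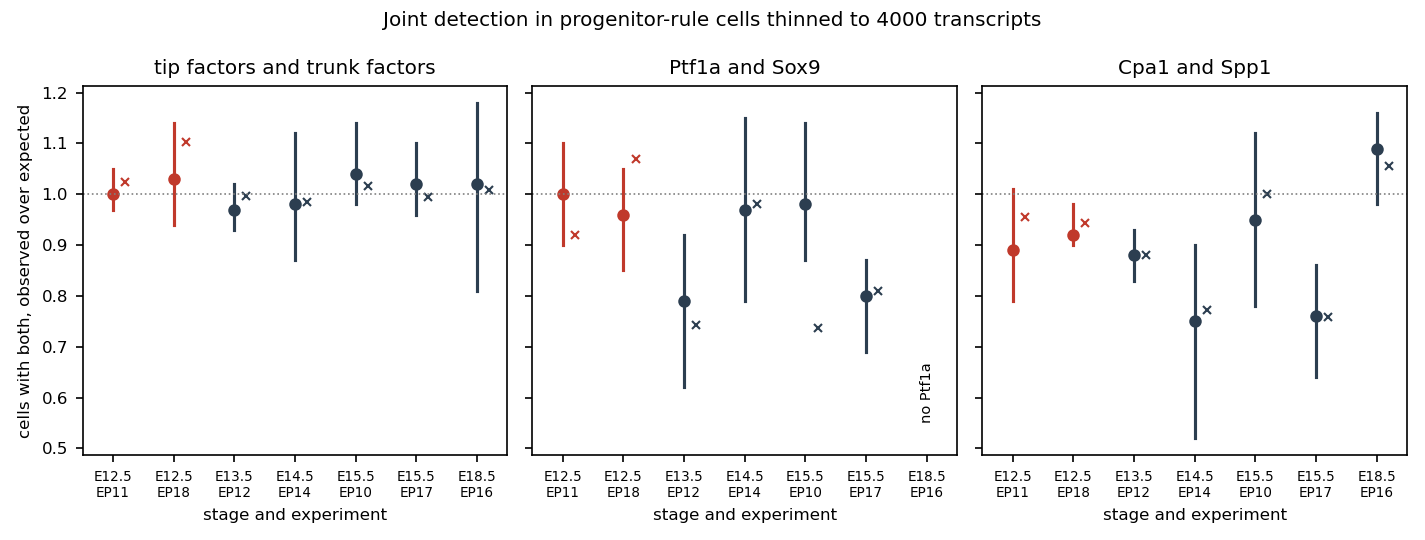
Share of cells with both genes or factor groups, divided by the share expected from independent detection, in progenitor-rule cells of each live experiment in order of stage, drawn down to 4000 transcripts; points are the mean and lines the range of 20 draws, crosses the first draw, E12.5 in red, and 1 is the dotted line. Tip and trunk factors lie between 0.97 and 1.04 throughout, Cpa1 and Spp1 lie at 0.89 and 0.92 at E12.5, and no Ptf1a was drawn at E18.5.

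The share of live wells that met the rule was 37.3% and 44.3% at E12.5, and 35.2% in EP12, 17.9% in EP14, 27.1% and 60.5% in EP10 and EP17 and 26.3% in EP16. A further E18.5 live plate of EP16, coded mosquito and left out of the test, had 20 of 301 kept wells (6.65%), and the difference below was 9.48 percentage points with it. Both E12.5 values lay inside the later range. The mean was 40.8 ± 4.93% at E12.5 (SD, n = 2) and 33.4 ± 16.3% later (n = 5), and the difference of 7.44 percentage points did not pass the test (exact two-sided permutation test, p = 0.524, adjusted over 2 values 0.524). On the plates sorted for MIP-GFP and assigned to E12.5 by the stage field, though their titles give E15.5, 3 of 349 kept wells in EP11 and 1 of 173 in EP18 met the rule.

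The planned edgeR test called 21 genes between E12.5 progenitor cells and cells of the same rule at E15.5, and 8 of them were on the list of acinar enzymes. This count depended on the method, with 183 genes called by DESeq2, and does not measure how alike the cells were. Transcripts were summed per experiment and all stages fitted together with edgeR's quasi-likelihood test, with Benjamini-Hochberg adjustment over 12112 genes. In such sums, fewer cells with a transcript and less of it per cell cannot be told apart. At E15.5 the rule also admits acinar cells, which keep Cpa1 and Ptf1a. In all, 2 genes (0.0165%) rose and 19 (0.157%) fell at E12.5 relative to E15.5. Arg1, the arginase of the urea cycle, had 101.5 and 152 CPM at E12.5, against 5.48 and 7.15 CPM at E15.5 (log2 difference 4.29, SE 0.51, edgeR adjusted p = 0.0323). Greb1, first known as a hormone-responsive gene, had 134 and 88.1 CPM at E12.5, against 10.95 and 5.96 CPM at E15.5 (log2 difference 3.53, SE 0.44, edgeR adjusted p = 0.0392). Both E12.5 experiments lay above both E15.5 experiments, as they did for 24.2% of all tested genes. The E13.5 experiment lay between them with 31.7 CPM of Arg1 and 40.6 CPM of Greb1. In their own library coding, the log2 difference of Arg1 was 3.98 between EP11 and EP10 and 4.23 between EP18 and EP17, and that of Greb1 was 3.5 and 3.68.

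Zymogen genes were at or near 0 at E12.5. Cpb1, carboxypeptidase B, had 0 transcripts in both E12.5 experiments, against 434 and 797 CPM at E15.5, and was at least 825-fold lower when set at a floor of 3 counts over the group (edgeR adjusted p = 0.0147). The elastase genes Cela2a and Cela3b and the trypsinogen genes Try10 and Prss1 also had 0 transcripts at E12.5 and were at least 513-fold, 277-fold, 460-fold and 210-fold lower (edgeR adjusted p between 0.0111 and 0.0219). The amylase gene Amy2b had 0.556 and 1.71 CPM at E12.5, against 494 and 349 CPM at E15.5 (log2 difference -8.94, SE 0.63, edgeR adjusted p = 0.0111). Try5 and Prss2, further trypsinogens, Pdia2 and Erp27, folding proteins of the endoplasmic reticulum, the water channel gene Aqp8 and Rab3d, a GTPase of secretory granules, fell as well. Trypsinogen and amylase genes have close copies, and how the counting divided reads between them is not given in the sources used here. Among the other genes that fell, Nupr1 had 18.6 and 17.97 CPM at E12.5, against 266 and 237 CPM at E15.5 (log2 difference -3.91, SE 0.38, edgeR adjusted p = 0.0169). Igf1, Tinagl1, Arhgdig, Cfi, Adora1 and Clca1 make up the rest. For each of the 19 genes both E12.5 values lay below both E15.5 values, as they did for 13.4% of all tested genes. The 19 were called from these same sums, so this adds no separate support.

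Other acinar enzymes were already present at E12.5. Of 27 listed acinar enzymes 24 were tested, of which 0 rose and 8 fell. Clps had 194 and 401 CPM at E12.5, against 2506 and 5580 CPM at E15.5 (edgeR adjusted p = 0.126), and Pnliprp1 110 and 269 CPM, against 6174 and 13380 CPM (adjusted p = 0.0751). Ctrb1 had 50.04 and 125 CPM at E12.5, against 10910 and 23270 CPM at E15.5 (adjusted p = 0.0566). At E13.5 Ctrb1 stood at 3962 CPM, between its E12.5 and E15.5 values. At E15.5 these enzymes were also found in wells without Epcam: in cells thinned to 4000 transcripts, Ctrb1 averaged 48.4 transcripts in cells of the rule in EP10, against 5.72 in 94 wells without Epcam, and 93.2 in EP17, against 86.2 in 17 such wells. Clps averaged 10.99 transcripts in cells of the rule in EP10, against 0.713, and 23.1 in EP17, against 19.6. Cpb1 was found in 35.6% of cells of the rule in EP10, against 12.8%, and in 55.9% in EP17, against 11.8%. The part of such RNA in the stage comparison was not tested.

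Of 5 tested tip factors 0 passed the test. Rbpjl had 83.1 and 80.4 CPM at E12.5, against 307 and 341 CPM at E15.5 (edgeR adjusted p = 0.0932). Bhlha15, a factor of secretory cells, had 3.89 and 10.3 CPM at E12.5, against 83.2 and 172 CPM (adjusted p = 0.0637), and Gata4 72.6 and 65.9 CPM, against 139.5 and 204 CPM (adjusted p = 0.297). Mycn, a transcription factor gene of the Myc family, had 105 and 104 CPM at E12.5, against 17.2 and 8.34 CPM (adjusted p = 0.0566). Of 4 tested trunk factors 0 passed. Nkx6-1 had 105 and 25.7 CPM at E12.5, against 58.8 and 4.77 CPM at E15.5 (adjusted p = 0.912). The rule genes stand as a description: Sox9 had 871 and 861 CPM at E12.5, against 370.2 and 372 CPM at E15.5, Cpa1 1027 and 2059 CPM, against 4281 and 7580 CPM, and Ptf1a 89.5 and 141 CPM, against 187 and 405 CPM.

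**Figure D5:**
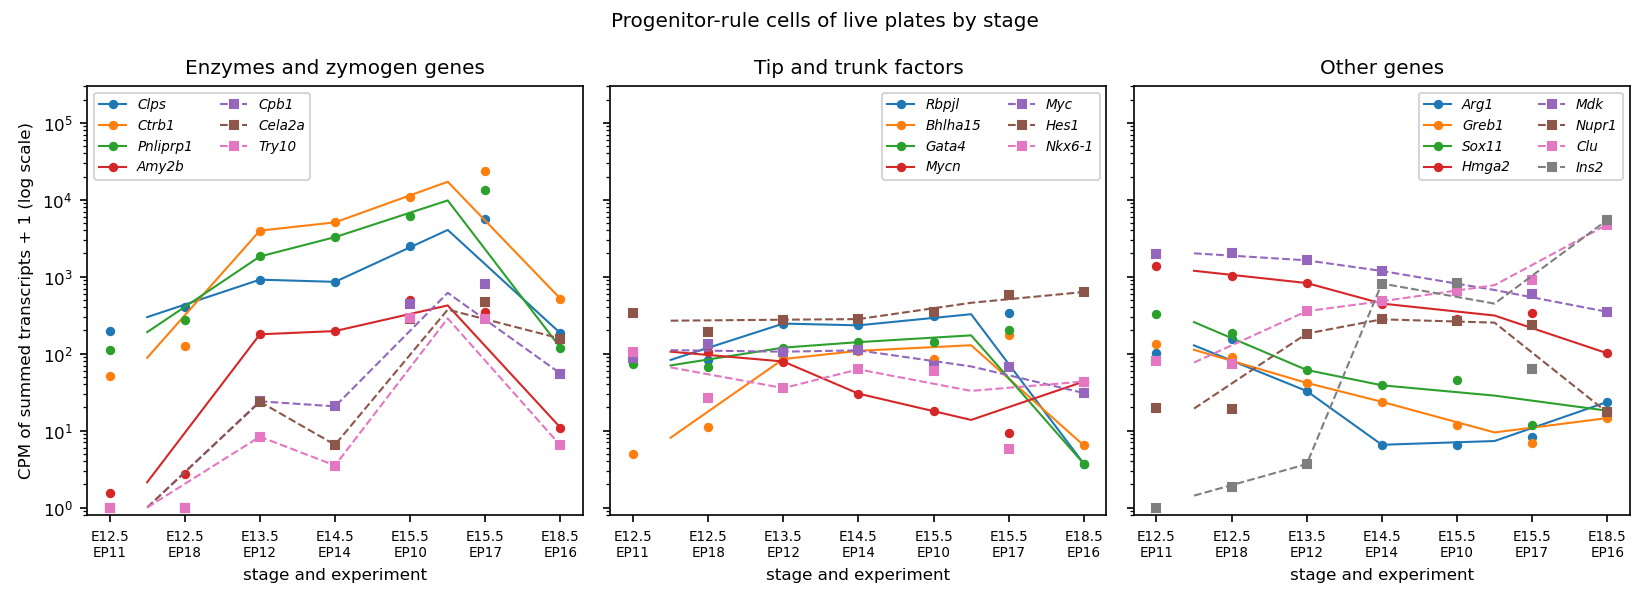
Summed transcripts in CPM plus 1, on a log axis, in cells meeting the progenitor rule in each live experiment in order of stage, for enzyme and zymogen genes, tip and trunk factors, and other genes; points are experiments, lines join the means of the stages, and no error bars are drawn. Cpb1, Cela2a and Try10 are at 0 at E12.5 while Clps is at 194 and 401 CPM, and Arg1 and Greb1 are highest at E12.5.

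The stage counts rest on few experiments. Without EP11 or without EP18, edgeR called 0 genes (526 and 448 had an unadjusted p under 0.05), while DESeq2 called 44 and 88, and without EP12, EP10 or EP17 edgeR called 12, 285 and 339. Where 1 experiment is left in a stage, it is assumed to vary like the other stages. With library coding as a term, an alternative added after seeing the data, 294 genes (2.43%) rose and 593 (4.90%) fell at E12.5, among them 22 of 24 acinar enzymes, Rbpjl, Bhlha15, Gata4 and Mycn. Collagens moved with 1 experiment: the cells of the rule had a median of 62.4 and 75.0 CPM of collagen transcripts at E12.5, against 395 CPM in EP10 and 0 CPM in EP17 at E15.5. Of 11 tested mesenchyme markers 0 passed the test, and the part of collagen transcripts in the stage comparison was not tested.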

How the data were processed

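Single-cell libraries were sequenced on an Illumina NextSeq500 with paired-end reads, per the labels' protocols. The submitters' processing notes name mm10, BWA and Seurat, without versions or order. The deposited values are estimated counts: transcripts per gene and well that the authors derived from molecular identifiers, not whole (the smallest value above 0 is 1.0) and not scaled for depth. They were read for 5760 of 7296 columns. The other 1536 columns matched no sample label by name and were not used. The 89 spike-in rows were left out of depth. The EP11 live plate has values in all 384 wells though 3 libraries are labelled, so some wells may lie outside the labelled ones.

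Values were rounded to integers and added up per plate, and CPM was computed from the sums. Cells were thinned by drawing 4000 transcripts without replacement. edgeR 4.0.16 (TMM, filterByExpr, quasi-likelihood test) in R 4.3.3 compared sums of at least 10 cells, E12.5 minus E15.5, with all stages in 1 fit and the rule genes left out of the calls. The fit was tested on simulated data. DESeq2 1.42.0 was an alternative, and other alternatives changed filters, depth, cell rule, comparator and replicates. Python 3.11.15 with scipy 1.17.1 made the rest. The E18.5 plate coded mosquito was left out of the main comparison. No doublet caller was run, and wells above 5 times the plate median were removed in an alternative. A threshold of 0.05 was used for adjusted p-values.

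Named genes were the 10 with the highest and the 10 with the lowest fold against other wells (the smaller of both experiments), the 10 with the largest rise and fall by stage among those past the threshold with groups that do not overlap, members of gene lists, and the 5 genes most like Ptf1a or Sox9. Some genes these rules pick are not reported here. Genes named beyond these, among them those most like Cpa1 or Spp1, were chosen after their values were seen. The cell rule, the lists and the members were chosen with earlier results of these data known.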

Additional observations from a re-analysis of the deposited data

How the results depend on the processing

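No paired analysis was possible because an experiment holds 1 stage, so library numbers shared between stages do not mark shared embryos or plates. The count of genes that differ between E12.5 and E15.5 was 21, and it was 183 with DESeq2, 472 with no filter on low counts, 132 with the wells of the authors' smaller table, 40 with cells thinned to 4000 transcripts, and 0 to 339 when 1 experiment was left out. Chosen after seeing the data, library coding as a term gave 887, and DESeq2 gave 44 without EP11 and 88 without EP18. The cause was not tested. It was 18 to 25 under the remaining alternatives. For the 12 genes named by stage, 79 of 108 alternative values stayed past the threshold, 29 did not (all 12 without EP11, all 12 without EP18 and 5 without EP12), and 0 changed sign. The count of genes 4-fold apart between progenitor cells and other wells was 181, and it was 427 at 2-fold, 494 with a 10 CPM minimum, and 290 against wells without Epcam only (added after seeing the data). Leaving out 1 experiment, so that the other alone decided, gave 253 to 272. With the mean of per-cell shares the total stayed at 181, but 29 genes were higher in place of 16. Ptf1a with Sox9 was found in 17.6% of cells in EP11 and 26.7% in EP18 when cells were thinned to 4000 transcripts, against 55.7% and 43.3% at full depth, so depth limits detection. The difference in the share of wells meeting the rule ran from 1.03 to 14.2 percentage points over 13 alternatives (adjusted p from 0.0667 to 0.952), and that in factor sharing from 0.0108 to 0.103 over 14 (adjusted p from 0.0667 to 0.952). Neither passed the threshold in any of them. Leaving out an experiment puts the smallest possible p above 0.05, so those alternatives could not pass. With all 7 experiments the smallest p of the exact permutation test is 0.0476. Adjusted over 2 values it becomes 0.0952 unless both measures reach it, so neither could pass alone.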

Other observations

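Gene groups outside the exocrine programme were also compared between E12.5 and E15.5 cells of the rule, and 0 genes in them passed the edgeR test, with 1062 genes in all at an unadjusted p under 0.05. Among 14 genes of early embryonic growth, both E12.5 values lay above both E15.5 values in 9 and below in 0, against 24.2% above and 13.4% below over all genes. Hmga2, a chromatin protein of embryonic growth, had 1362 and 1020 CPM at E12.5, against 282 and 341 CPM at E15.5 (edgeR adjusted p = 0.271). The secreted growth factor gene Mdk had 1980 and 2036 CPM at E12.5, against 748 and 591 CPM (adjusted p = 0.404), and the transcription factor gene Sox11 had 327 and 184 CPM, against 44.2 and 10.7 CPM (adjusted p = 0.109). Among 18 immediate early genes both E12.5 values were below both E15.5 values in 10 and above in 0. Atf3 had 58.9 and 12.8 CPM at E12.5, against 285 and 147 CPM at E15.5 (adjusted p = 0.215).

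Of 9 liver markers 5 could be tested and 0 passed, and in 4 of the 5 both E12.5 values lay above both E15.5 values. Serpina1b had 212 and 204 CPM at E12.5, against 18.2 and 33.4 CPM at E15.5 (edgeR adjusted p = 0.0723), and Afp had 116 and 80.4 CPM, against 23.0 and 52.4 CPM (adjusted p = 0.544), while Apoa1 was at 0 in every experiment and Alb had 6.12 and 0.856 CPM at E12.5, against 0.73 and 1.19 CPM at E15.5. The insulin gene Ins2 had 0 and 0.856 CPM at E12.5, against 828 and 62.0 CPM at E15.5 (adjusted p = 0.0751), in cells chosen for lacking Neurog3 and Fev. Clu, a secreted chaperone gene of ducts, had 79.2 and 71.9 CPM at E12.5, against 659 and 890 CPM at E15.5 (adjusted p = 0.0634). The 46 cell cycle genes had a median log2 difference of 0.02.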
